A study of Mus musculus with 4 samples.

Results

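The genes described here are Trp53, which encodes the transcription factor p53, and its best known direct targets in the mouse. They were taken from a list of 31 symbols, matched to the gene name inside each amplicon name. The list and the roles below were chosen with earlier results of these data known. All 31 were present among the 23930 amplicons of the deposited table, and all 31 were among the 11638 genes tested, which had at least 1 RPM (reads of the amplicon, scaled to the same total in every library) in at least 2 libraries. They are ordered below by role, as p53 and its feedback regulator (2 genes), cell cycle arrest (7), apoptosis (13), DNA repair (5), and stress and metabolism (4).

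The libraries came from progenitor cells of the subcutaneous tissue of C57BL/6 mice whose Gnas gene carries loxP sites. Gnas encodes the stimulatory G protein alpha subunit. In the control group (2 libraries, genotype given as wild type) the cells received an adenovirus for green fluorescent protein, Ad-GFP, and in the mutant group (2 libraries, genotype given as Gnas-/-) one for Cre recombinase, Ad-Cre. Both groups then spent 7 days in osteogenic medium. All cells therefore carry the floxed allele and were infected, but only the mutants received Cre, so an effect of Cre itself and an effect of losing Gnas cannot be told apart. The labels give neither the age nor the sex of the mice and do not tie the libraries to separate animals or cultures, so each p-value measures the spread of these libraries alone, which between the mutants may be technical. No row was named Gnas, and the deletion was not checked here.

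The libraries held 13483518 to 18455811 reads, and a value of 0 allows up to 3 reads, or 0.163 to 0.222 RPM (a limit for counting error alone, because PCR copies of 1 molecule were not marked). Of 12 stromal progenitor markers 10 were present and 9 tested. Of these 9, 1 rose, 0 fell and 8 did not pass, against 1.73% of all genes higher and 0.576% lower. Their median log2 fold change was 0.80, with 8 positive and 1 negative, and their summed level was 14056 and 18281 RPM in the controls, against 31600 and 34826 in the mutants. The marker that rose was Dpt, at 19 and 58.1 RPM in the controls, against 666 and 430 in the mutants (adjusted p = 0.0389). Col1a1 stood at 5332 to 21009 RPM and Pdgfra at 92.1 to 128 RPM over the libraries, while Cd34 had 1 read in control 1 and Dpp4 was at 0 in control 2 and mutant 1. Krt5 had no read in any library and Krt14 stood at 0 to 0.067 RPM, so these 2 defining keratinocyte markers were at or near 0. The 10 keratinocyte markers together summed to 18.5 and 3.78 RPM in the controls, against 10.4 and 7.61 in the mutants. Of these 2 were tested and 0 passed, namely Perp, given below, and Sfn. Sfn stood at 3.79 and 1.41 RPM in the controls, against 2.35 and 3.91 in the mutants. The controls were unlike each other, with 3036 reads of Xist in control 1 and 0 in control 2. Xist, the RNA of the inactive X chromosome, stood at 165 RPM in control 1, 0 in control 2, and 395 and 419 in the mutants, and the Y-linked Ddx3y at 61.4, 124, 26.9 and 12.5 RPM. Both mutants thus stood above both controls for Xist and below both for Ddx3y, and neither gene passed (limma, adjusted p = 0.341 and 0.112). The sex of the cells may therefore differ between the groups as well as between the controls, and its part in the results was not tested. The summed level of 15 macrophage markers was 50.8 RPM in control 1, 985.5 in control 2, and 33.8 and 20.6 in the mutants. Of these sums Lyz2 made up 33.9, 822, 20.8 and 10.4 RPM and Cd68 6.12, 57.7, 3.04 and 2.16 RPM. Of the 15 markers 8 were tested and 0 passed. Both mutants stood below both controls for 6 of the 8, against 21.1% of all genes. The groups overlapped for Csf1r and Aif1. Aif1 stood at 0 and 4.15 RPM in the controls, against 3.49 and 3.64 in the mutants. The 7 endothelial markers, of which 5 were tested and 0 passed, summed to 10.3 and 84.8 RPM in the controls, against 18.3 and 36.7 in the mutants. Pecam1 stood at 1.41, 24.5, 1.83 and 1.48 RPM and Cdh5 at 1.25, 23.7, 5.9 and 12.1 RPM in library order, whereas Kdr was higher in control 1 (2.49, 0.89, 1.26 and 2.56 RPM), Tek was highest in the mutants (4.01, 4.38, 5.61 and 12.2 RPM) and Tie1 had no read in any library. The part of these cells in the results below was not tested, and in such bulk samples fewer cells of a type and less RNA per cell cannot be told apart.

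p53 is made continuously and destroyed continuously through the ubiquitin ligase Mdm2. DNA damage activates the kinases Atm, Atr and their partners Chek1 and Chek2, which stabilise the p53 protein, and p53 then switches on genes that halt the cell cycle, start apoptosis or repair the lesion, along with Mdm2 itself, which closes the loop. Since the control acts on the protein, the level of Trp53 mRNA is not a measure of p53 activity, and the targets are read instead. Cre cuts DNA, and high levels of it are known to be able to damage the genome of mammalian cells. The comparison of Ad-Cre with Ad-GFP libraries therefore also bears on whether the target genes stand higher where Cre was delivered.

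p53 binds a pair of copies of a palindromic decamer, known as the p53 consensus decamer. This motif was searched in the RefSeq promoter windows (GRCm38.p6, 250 bases before to 50 after each annotated start). A site was a pair of decamers at most 10 bases apart with at most 2 mismatches in all and with the fixed C and G of each decamer intact. The motif is its own reverse complement, so the search covers both strands. Of 31 members 23 had a window, and 6 genes held such a site in 6 of their 31 windows (19.4%), against 3.34% of all 32851 windows. Tnfrsf10b, Perp, Trp53inp1, Zmat3, Ddb2, Xpc, Rrm2b and Pmaip1 had no window in the table. The 6 sites are shown because the results below return to each of these 6 genes. Capitals mark the pair of decamers, and lower case marks the spacer and 5 flanking bases on each side, on the strand of the gene.
Cdkn1a (chr17:29090928-29090947, plus strand): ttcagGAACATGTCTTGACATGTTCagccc
Ccng1 (chr11:40755462-40755481, minus strand): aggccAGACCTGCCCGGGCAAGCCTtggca
Gtse1 (chr15:85859945-85859964, plus strand): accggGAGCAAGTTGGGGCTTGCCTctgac
Ckap2 (chr8:22186003-22186022, minus strand): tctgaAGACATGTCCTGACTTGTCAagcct
Bax (chr7:45467079-45467099, minus strand): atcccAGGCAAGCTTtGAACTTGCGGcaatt
Sesn1 (chr10:41887253-41887275, plus strand): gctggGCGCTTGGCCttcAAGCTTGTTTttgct
Coordinates are those of the pair of decamers with any spacer. The Cdkn1a, Ccng1 and Gtse1 sites had 1 mismatch and the others 2. The Cdkn1a site lies before the first of its 2 annotated starts, and the Gtse1 site lies across a start. The Sesn1 site lies before the later annotated start of that gene (window chr10:41887189-41887488). The window of the earlier Sesn1 start (chr10:41810324-41810623) held no such site. A match is a description of the letters and does not show binding, and a window without a match says nothing about sites elsewhere in the gene.

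Across the 31 members, 1 was higher in the mutants, 0 were lower and 30 did not pass (limma, adjusted p below 0.05 over all genes), where 1.73% of all tested genes were higher and 0.576% lower, 2.3% in either direction. At an unadjusted p below 0.05, 6 members were higher and 3 lower, against 11.9% and 6.01% of all genes. The edgeR quasi-likelihood test on whole reads called 0 members in either direction (0.567% of all genes higher, 0.232% lower), and DESeq2 called 2 higher and 3 lower (5.14% and 4.24% of all genes). The median log2 fold change of the members was 0.34, beside 0.08 over all genes tested, and it was above 0 for 24 of the 31 members, against 56.2% of all genes. By edgeR the members' median was 0.20 and by DESeq2 0.18. Both mutants stood above both controls for 13 of the 31 (41.9%, against 30.6% of all genes) and below both for 6 (19.4%, against 21.1%). The single gene past the threshold was Sesn1.

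**Figure D1:**
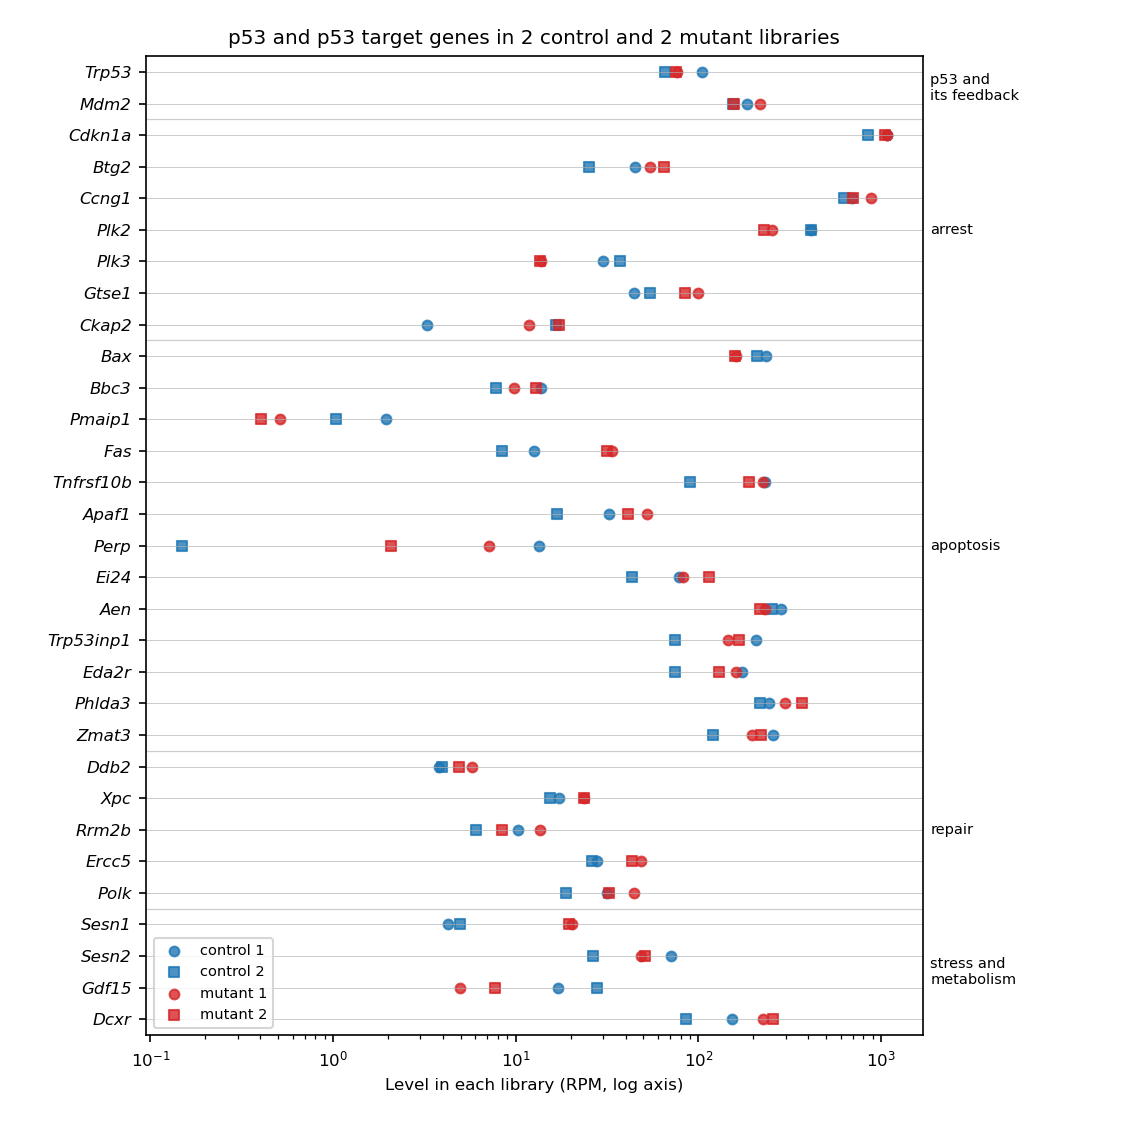
Level of each of the 31 genes in each library (RPM, log axis), grouped by role, with controls in blue and mutants in red, circles for library 1 and squares for library 2 of a group. Sesn1 and Fas stand higher in both mutants than in both controls and Plk3 and Gdf15 lower, while control 2 (blue squares) is the lowest library for Trp53inp1, Tnfrsf10b, Eda2r, Zmat3 and Sesn2.

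Neither regulator passed the test. Trp53 stood at 104 RPM (control 1) and 65.6 (control 2), against 76.3 (mutant 1) and 75.8 (mutant 2), with both mutants between the controls. Its log2 fold change was -0.12 (SE 0.28, adjusted p = 0.865). Mdm2, which encodes the ligase that degrades p53 and is among its most direct targets, stood at 184 and 154 RPM in the controls, against 217 and 157 in the mutants, so the groups overlapped. Its log2 fold change was 0.13 (SE 0.25, adjusted p = 0.831), with a 95% interval of -0.51 to 0.76. That interval holds a moderate rise as well as a moderate fall.

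Among the 7 arrest genes 0 passed in either direction by limma or edgeR, with a median log2 fold change of 0.26. For 3 of the 7 both mutants stood above both controls and for 2 below both, against 30.6% and 21.1% of all genes. At an unadjusted p below 0.05 (limma), 1 was higher and 2 lower, against 11.9% and 6.01% of all genes. DESeq2 called 0 higher and 2 lower (5.14% and 4.24% of all genes). Cdkn1a encodes the cyclin-dependent kinase inhibitor p21, the main effector of arrest by p53, and its promoter site is printed above. It stood at 1074 and 847 RPM in the controls, against 1081 and 1046 in the mutants. The mutants differed from control 1 by less than the controls differed from each other. The log2 fold change of Cdkn1a was 0.16 (SE 0.26, adjusted p = 0.795), with a 95% interval of -0.50 to 0.81, and it was -0.015 without control 2. Ccng1, which encodes cyclin G1 and carries a site in its window, stood at 694 and 623 RPM in the controls, against 884 and 705 in the mutants. Btg2, an antiproliferative gene, stood at 45.1 and 25.2 RPM against 54.2 and 64.7. For both genes both mutants lay above both controls, mutant 2 of Ccng1 only just.

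Plk2 and Plk3, which encode polo-like kinases of checkpoint and stress responses, had lower values in the mutants. Plk3 stood at 30.1 and 37.2 RPM in the controls, against 13.7 and 13.5 in the mutants, and Plk2 at 413 and 414 RPM in the controls, against 253 and 229 in the mutants. The groups did not overlap for either gene. The log2 fold change of Plk3 was -1.23 (SE 0.26, adjusted p = 0.1) and that of Plk2 -0.78 (SE 0.20, adjusted p = 0.143), and neither passed. DESeq2 gave adjusted p = 0.003 for Plk3 and 0.00962 for Plk2, and edgeR 0.0986 and 0.166.

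Gtse1 and Ckap2 encode microtubule-associated proteins made mainly by dividing cells, and Gtse1 also restrains p53 in G2. Both are counted among the 7 arrest genes here, of which they had the highest log2 fold changes (0.89 and 0.83). Gtse1 stood at 44.4 and 54.4 RPM in the controls, against 99.5 and 84.9 in the mutants, which do not overlap. Its log2 fold change was 0.89 (SE 0.23, adjusted p = 0.142). Ckap2 stood at 3.25 RPM (control 1) and 16.5 (control 2), against 11.8 (mutant 1) and 17.3 (mutant 2), so control 1 alone was low. Ckap2 had the same order of the controls as the cell cycle genes described further on.

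Among the 13 apoptosis genes 0 passed in either direction by limma or edgeR. At an unadjusted p below 0.05 (limma), 2 were higher and 0 lower, against 11.9% and 6.01% of all genes. DESeq2 called 1 higher and 0 lower (5.14% and 4.24% of all genes). For 4 of the 13 (30.8%) both mutants stood above both controls and for 3 (23.1%) below both, close to the 30.6% and 21.1% of all genes. The median log2 fold change was 0.33, with 10 positive and 3 negative, and it was 0.11 by edgeR and 0.10 by DESeq2, which put the median of all genes at -0.02 and -0.03. Fas, which encodes a death receptor of the cell surface, stood at 12.5 and 8.46 RPM in the controls, against 33.6 and 31.6 in the mutants. The mutants were alike and stood well clear of the controls, a 3.11-fold ratio of means. Its log2 fold change was 1.57 (SE 0.30, adjusted p = 0.0792). DESeq2 gave an adjusted p of 0.000852 for Fas and edgeR 0.0866. The other death receptor of the list, Tnfrsf10b, stood at 231 and 90.1 RPM in the controls, against 225 and 190 in the mutants, where the groups overlap. The Fas gene is on the plus strand at chr19:34290666-34327772 in the GENCODE M21 annotation of GRCm38, which also gives the gene positions below; amplicon positions were not used here.

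The genes of the mitochondrial route gave no call. Bax, the pore-forming effector of the outer mitochondrial membrane, stood at 234 and 208 RPM in the controls, against 161 and 158 in the mutants. These groups do not overlap, and the log2 fold change was -0.47 (SE 0.20, adjusted p = 0.306). Bbc3, which encodes the BH3-only protein Puma, stood at 13.7 and 7.79 RPM against 9.79 and 12.9, with overlap. Pmaip1, which encodes the BH3-only protein Noxa, was near the detection limit at 1.95 and 1.04 RPM in the controls, against 0.515 and 0.404 in the mutants. Apaf1, the scaffold that cytochrome c turns into a caspase-activating complex, stood at 32.5 and 16.8 RPM in the controls, against 52.1 and 41.3 in the mutants. The log2 fold change of Apaf1 was 0.96 (SE 0.37, adjusted p = 0.278).

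The other apoptosis genes gave no call. Phlda3, an inhibitor of Akt signalling, stood at 244 and 217 RPM in the controls, against 298 and 371 in the mutants. Ei24, a gene of the endoplasmic reticulum, stood at 78.3 and 43.5 RPM against 81.9 and 115. Both lay above the controls in both mutants. Aen, an exonuclease gene, stood at 283 and 254 RPM against 231 and 218, below both controls. Trp53inp1, Eda2r and Zmat3, which encode a p53-activating cofactor, a receptor of the TNF receptor family and a zinc finger RNA-binding protein, had mutants between the controls. Their control values were 207 and 74.8 RPM for Trp53inp1, 173 and 74 for Eda2r and 256 and 120 for Zmat3, and their mutant values were 146 and 168, 160 and 129, and 196 and 220. Perp, a desmosome gene of epithelia that p53 can induce, stood at 13.4 RPM (control 1) and 0.148 (control 2, 2 reads), against 7.16 (mutant 1) and 2.09 (mutant 2).

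All 5 repair genes had a positive log2 fold change, from 0.38 to 0.74 with a median of 0.51. However, 0 passed in either direction by limma, edgeR or DESeq2. At an unadjusted p below 0.05 (limma), 1 was higher and 0 lower, against 11.9% and 6.01% of all genes. Both mutants stood above both controls for 4 of the 5 and below both for 0, against 30.6% and 21.1% of all genes. Ercc5, the endonuclease that cuts on the 3′ side of a lesion in nucleotide excision repair, stood at 27.8 and 26.1 RPM in the controls, against 48.3 and 43.3 in the mutants. The gap between the groups was larger than the gap within either, and the log2 fold change was 0.74 (SE 0.23, adjusted p = 0.193). Xpc, a damage sensor of the same pathway, stood at 17.2 and 15.4 RPM against 23.5 and 23.7 (log2 fold change 0.51, SE 0.26, adjusted p = 0.372). Ddb2, the sensor of ultraviolet lesions, was low at 3.79 and 3.93 RPM against 5.79 and 4.92.

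Polk, a polymerase that copies past lesions, stood at 31.8 and 18.8 RPM in the controls, against 44.4 and 32.3 in the mutants. Mutant 2 was barely above control 1, and the log2 fold change was 0.61 (SE 0.35, adjusted p = 0.428). Rrm2b, the p53-inducible subunit of ribonucleotide reductase, stood at 10.3 and 6.08 RPM against 13.6 and 8.42, with overlap. The median of the repair genes was 0.73 without control 1, 0.40 without control 2, 0.38 without mutant 1 and 0.71 without mutant 2, positive in each.

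Of the 4 stress and metabolism genes 1 rose, 0 fell and 3 did not pass, against 1.73% of all genes higher and 0.576% lower. Sesn1, a sestrin that restrains mTORC1 signalling, stood at 4.28 and 4.97 RPM in the controls, against 20.4 and 19.5 in the mutants. Within each group the values were close (4.62 ± 0.487 against 19.96 ± 0.607 RPM, SD, n = 2 each), and the ratio of means was 4.32. The log2 fold change was 1.90 (SE 0.29, 95% interval 1.15 to 2.65, adjusted p = 0.0496), just inside the threshold. Its paralogue Sesn2, an inducible sestrin of the same function, stood at 70.6 and 26.6 RPM in the controls, against 48.5 and 50.7 in the mutants, between the controls. The Sesn1 gene is at chr10:41809935-41908424, plus strand. Its call ended with a pseudocount of 0.5 (adjusted p = 0.0528), no filter on low values (0.124), median-of-ratios scaling (0.0577), TMM scaling (0.0557), the replicate number as a block (0.0536), edgeR (0.0692) and without either mutant library (0.695 without mutant 1, 0.708 without mutant 2), while the log2 fold change stayed between 1.82 and 2.03 in these. DESeq2 gave an adjusted p of 7.26e-05.

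Gdf15, a secreted factor of the TGF-beta family that many stresses induce, had the most negative fold change of the 31. It stood at 17.1 and 27.9 RPM in the controls, against 4.98 and 7.68 in the mutants, with no overlap. Its log2 fold change was -1.67 (SE 0.39, adjusted p = 0.116), and DESeq2 gave an adjusted p of 0.00405 and edgeR 0.13. Dcxr, a dicarbonyl and xylulose reductase, stood at 153 and 85.1 RPM in the controls, against 227 and 257 in the mutants. The log2 fold change of Dcxr was 1.08 (SE 0.33, adjusted p = 0.19).

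**Figure D2:**
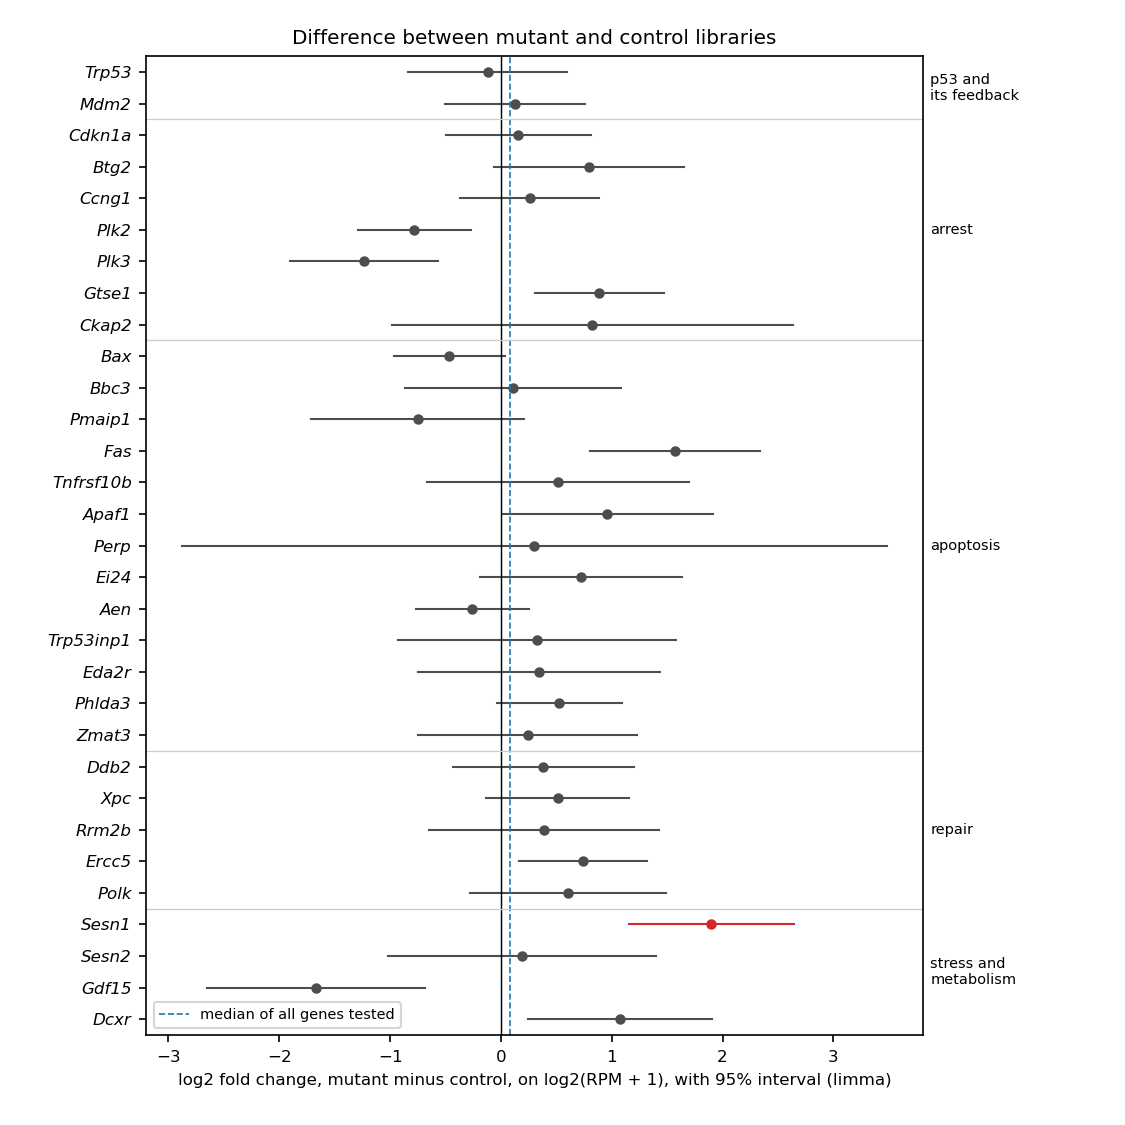
Log2 fold change of each of the 31 genes (mutant minus control, on the log2(RPM + 1) scale, limma) with its 95% interval, by role; red marks the 1 gene past an adjusted p of 0.05 and the dashed line the median of all genes tested, 0.08. The intervals of Cdkn1a, Mdm2 and Bbc3 span 0, those of Plk2, Plk3 and Gdf15 lie below it and those of Fas, Gtse1, Ercc5 and Dcxr above it.

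Much of the spread in these genes lay between the controls. All 13 apoptosis genes, and 24 of the 31 members (77.4%), were higher in control 1 than in control 2, against 57.8% of all tested genes. The median of control 1 minus control 2 on the log2 scale was 0.84 for the apoptosis genes, 0.15 for the repair genes, 0.00 for the arrest genes and 0.12 for all genes tested. The controls were over 2-fold apart on the log2(RPM + 1) scale for 7 of the 31 members (22.6%, against 18.2% of all genes) and the mutants for 1 of them. Of these 7, Ckap2 was lower in control 1 and the others were higher there. The ratio of control 1 to control 2 in RPM was 2.76 for Trp53inp1, 2.66 for Sesn2, 2.57 for Tnfrsf10b, 2.33 for Eda2r and 2.13 for Zmat3, and the last of them, Perp, had 2 reads in control 2. Control 2 is the library with the highest macrophage and endothelial sums and with no Xist.

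The calls differed with the control that the mutants were set against. Without control 1, 15 of 30 tested members were higher and 3 lower, where 15.2% and 7.23% of all genes were. These included 8 apoptosis genes, and the apoptosis median was 1.00. Without control 2, 4 members were higher and 3 lower, where 10.4% and 7.51% of all genes were, and the apoptosis median was -0.26, in the opposite direction. In both of these fits the lone control is assumed to vary as the mutants do, which were closer to each other than the controls. Without mutant 1 or without mutant 2, limma called 0 genes of any kind. Called in the same direction whichever control was left out were 3 higher genes (Fas, Gtse1 and Sesn1) and 3 lower ones (Plk2, Plk3 and Gdf15) of 30, against 6.31% and 2.51% of all genes tested in both fits, which share both mutants. Cdkn1a, Mdm2, Bax and Bbc3 were called in neither fit. The sign of the fold change turned for 8 of 30 members without control 2 (Cdkn1a, Bbc3, Tnfrsf10b, Perp, Trp53inp1, Eda2r, Zmat3 and Sesn2) and for 2 without control 1 (Trp53 and Ckap2).

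**Figure D3:**
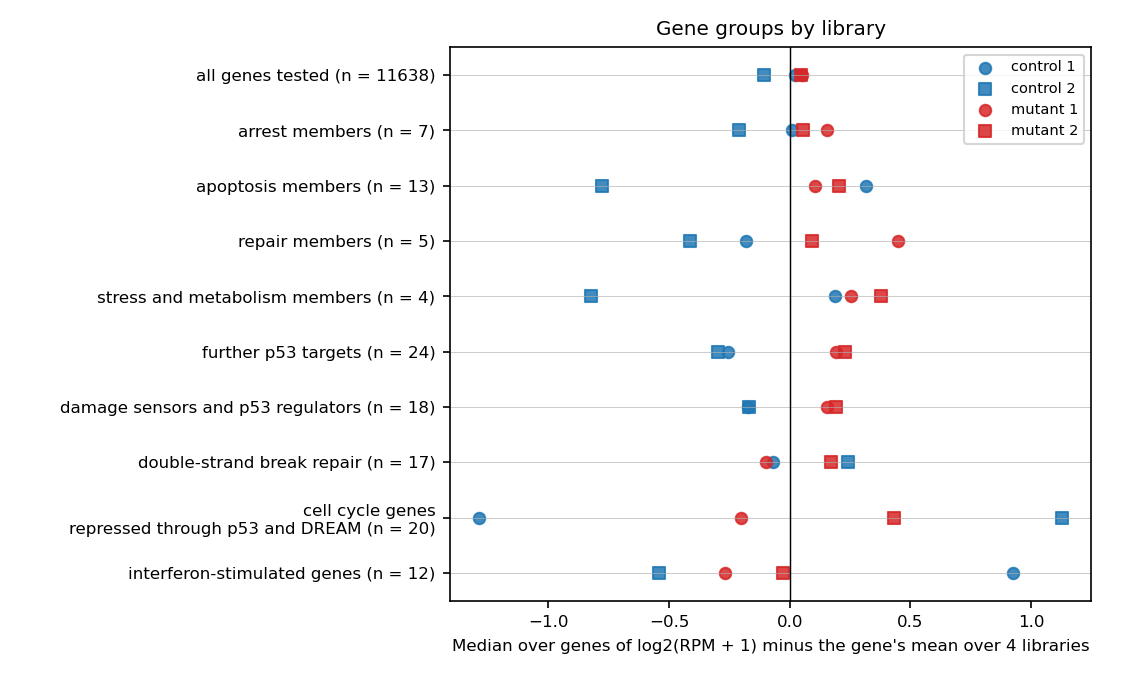
Median over the tested genes of each group of the log2(RPM + 1) value minus that gene's mean over the 4 libraries, 1 point per library, with controls in blue and mutants in red, circles for library 1 and squares for library 2. The apoptosis genes are lowest in control 2 (-0.78) and highest in control 1 (0.32), the cell cycle genes the other way round (1.13 and -1.29), and both mutants lie between the controls in these 2 groups.

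The controls also differed in cell cycle genes, which p53 represses through p21 and the DREAM complex. All 20 tested members of that list were higher in control 2 than in control 1, with a median gap of 2.23 on the log2 scale, while the apoptosis genes had the opposite order. Of all genes 57.8% were higher in control 1 than in control 2. Between mutants and controls 0 of the 20 passed in either direction (limma; 0 at an unadjusted p below 0.05, 0 by edgeR and 0 by DESeq2), with a median log2 fold change of 0.24. Of all genes 1.73% were called higher and 0.576% lower by limma, and 5.14% and 4.24% by DESeq2. Rrm2, a subunit of ribonucleotide reductase made in S phase, stood at 14.2 RPM (control 1) and 54.1 (control 2), against 44.8 (mutant 1) and 57.6 (mutant 2), with log2 fold change 0.84 (SE 0.62, adjusted p = 0.538). Tyms, the thymidylate synthase gene, stood at 20.9, 76, 25.9 and 27.1 RPM, control 1 first (log2 fold change -0.58, SE 0.61, adjusted p = 0.669). The groups overlapped for all 20 genes, and the median of the list was -1.03 without control 1 and 1.38 without control 2. Of all genes 30.6% had both mutants above both controls and 21.1% below both. The controls were over 2-fold apart for 19 of the 20 (18.2% of all genes), which leaves little room for groups that do not overlap.

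A list of further p53 targets, also chosen with earlier results of these data known, was read in the same way. Of 24 tested, 0 passed in either direction by limma or edgeR, and the median log2 fold change was 0.40. At an unadjusted p below 0.05 (limma), 7 were higher and 1 lower, against 11.9% and 6.01% of all genes. DESeq2 called 2 higher and 0 lower (5.14% and 4.24% of all genes). Both mutants stood above both controls for 11 of the 24 and below both for 3, against 30.6% and 21.1% of all genes. Ptprv, a phosphatase gene of mesenchymal cells that p53 can induce in arrest, stood at 2.38 and 8.23 RPM in the controls, against 22.9 and 35.5 in the mutants (log2 fold change 2.40, SE 0.56, adjusted p = 0.118). Tob1, an antiproliferative gene of the Btg2 family, stood at 25.3 and 17.1 RPM against 48.2 and 48.6 (log2 fold change 1.18, SE 0.28, adjusted p = 0.121). Both genes had non-overlapping groups.

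Of 18 tested sensors and regulators upstream of p53, 0 passed in either direction by limma, edgeR or DESeq2. Their median log2 fold change was 0.20. At an unadjusted p below 0.05 (limma), 2 were higher and 0 lower, against 11.9% and 6.01% of all genes. Cdkn2a, whose products inhibit Mdm2 and the cell cycle kinases and whose single amplicon was not assigned to either product here, stood at 117 and 68.1 RPM in the controls, against 188 and 161 in the mutants (log2 fold change 0.95, SE 0.31, adjusted p = 0.217). Trp53bp1, a scaffold at DNA breaks, stood at 42.6 and 42.3 RPM against 62.5 and 62.4 (log2 fold change 0.55, SE 0.21, adjusted p = 0.264). Both mutants stood above both controls for 8 of the 18, these 2 among them, and below both for 0, against 30.6% and 21.1% of all genes.

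Of 17 tested genes for the repair of double-strand breaks, 0 rose, 1 fell and 16 did not pass. Of all genes 1.73% were higher and 0.576% lower. The median log2 fold change of the 17 was 0.16. For 1 of the 17 both mutants stood above both controls and for 3 below both, against 30.6% and 21.1% of all genes. The gene that fell was Xrcc4, a partner of DNA ligase IV in end joining. It stood at 12 RPM in control 1 (221 reads) and 9.12 in control 2 (123 reads), and at 1.03 and 1.28 RPM in the mutants (18 and 19 reads), a 9.13-fold lower mean. Its log2 fold change was -2.41 (SE 0.34, adjusted p = 0.0398), and it passed with either control left out (adjusted p = 0.00575 without control 1, 0.00257 without control 2) but not with either mutant left out (0.643 without mutant 1, 0.642 without mutant 2). DESeq2 gave an adjusted p of 7.63e-07 and edgeR 0.0567. Lig4, the ligase itself, stood at 6.99 and 5.86 RPM against 8.99 and 6.8, with overlap. Palb2, a partner of Brca2, was low throughout, at 1.41 and 1.19 RPM in the controls, against 0.286 and 0.269 in the mutants (log2 fold change -0.85, SE 0.34, adjusted p = 0.292). The Xrcc4 gene is at chr13:89774027-90089608, minus strand.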

How the data were processed

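Messenger RNA was measured in 4 libraries (2 control, 2 mutant) with an Ion AmpliSeq mouse transcriptome panel on an Ion Chef, per the labels' protocols, which reads each gene through 1 short amplicon. The authors deposited RPM values; the aligner, counter and build were not given in the sources used here. Symbols were taken from amplicon names because 27 gene names had been turned into dates. Low values are whole multiples of 1 step per library, so whole reads were recovered (100% of non-zero values within 0.01 read).

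The test was limma 3.58.1 in R 4.3.3 (eBayes with a trend) on log2(RPM + 1), which understates changes of low genes, two-sided, with Benjamini-Hochberg adjustment over 11638 genes. An exact permutation test of 2 against 2 cannot go below p = 0.333 and was not used. Alternatives were other pseudocounts, filters and scalings, no trend, each library dropped in turn, the replicate number as a block, and edgeR 4.0.16 and DESeq2 1.42.0 on whole reads. Tested on simulated reads with known changes, all larger than that of any member, the fit recovered most of them. Unchanged genes made up a larger share of its calls than the threshold of 0.05. How often the fit recovers changes as small as those of the members was not tested. Members, roles and lists were chosen with earlier results of these data known. Full statistics are given for members past the threshold and the 3 with the smallest p of each role. In each other list they are given for genes past the threshold, or the 2 with the smallest p. Cdkn1a, Lig4 and the ranges between controls were added after their values were seen. Python 3.11.15, numpy 2.4.6, pandas 2.3.3 and matplotlib 3.10.9 were used.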

Additional observations from a re-analysis of the deposited data

How the results depend on the processing

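The number of genes higher in the mutants (201) became 56 with no filter on low values, 66 by edgeR and 598 by DESeq2, and the number lower (67) became 18, 27 and 493, and 123 with the replicate block. Leaving out 1 library gave 0 to 1731 higher and 0 to 854 lower genes. The count of members higher (1) became 0 with a pseudocount of 0.5, no filter, median-of-ratios scaling, TMM scaling, the replicate block and edgeR, 2 by DESeq2, and 0 to 15 with 1 library left out. The count of members lower (0) became 3 by DESeq2 and 0 to 3 with 1 library left out. With 1 library left out the median log2 fold change ranged from 0.028 to 0.74 for all members, 0.13 to 0.42 for arrest, -0.26 to 1.00 for apoptosis and 0.38 to 0.73 for repair genes, whose median was also 0.43 with a pseudocount of 5 and 0.43 with median-of-ratios scaling. The cause of these differences was not tested. Dropping any library leaves fewer samples. With a control dropped, the spread within groups is taken from the mutants alone, and with a mutant dropped, from the controls alone. With 1 library left out the fold change crossed 0 in 11 members, the ranges being -0.45 to 0.21 for Trp53, -0.10 to 0.36 for Mdm2, -0.015 to 0.33 for Cdkn1a, -0.20 to 1.85 for Ckap2, -0.26 to 0.48 for Bbc3, -0.16 to 1.19 for Tnfrsf10b, -1.52 to 2.13 for Perp, -0.40 to 1.05 for Trp53inp1, -0.26 to 0.95 for Eda2r, -0.30 to 0.79 for Zmat3 and -0.50 to 0.88 for Sesn2. Perp also turned with a pseudocount of 5 (-0.070), by edgeR (-0.58) and by DESeq2 (-0.58), and Sesn2 by edgeR (-0.021) and DESeq2 (-0.030). The libraries share only a number across groups (correlation of deviations 0.164 over 11638 genes), and with the number as a block Sesn1 had an adjusted p of 0.0536. Genes near 1 RPM, such as Pmaip1, rest on few reads.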

Other observations

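Interferon-stimulated genes, which cells switch on after sensing viral nucleic acid, were another group in which the controls differed. All 12 tested members were higher in control 1 than in control 2, against 57.8% of all genes. Their median gap was 1.53 on the log2 scale, with the same order of the controls as in the 13 apoptosis genes. Between the groups 0 passed in either direction by limma or edgeR, with a median log2 fold change of -0.22. At an unadjusted p below 0.05 (limma), 0 were higher and 3 lower, against 11.9% and 6.01% of all genes. DESeq2 called 0 higher and 2 lower (5.14% and 4.24% of all genes). Irf7, a transcription factor of the response, stood at 61.9 and 42.5 RPM in the controls, against 14.3 and 20.4 in the mutants (log2 fold change -1.53, SE 0.32, adjusted p = 0.0948). Ifi44 stood at 28.8 and 6.38 RPM against 1.6 and 1.15 (log2 fold change -2.65, SE 0.70, adjusted p = 0.15). Irf7 and Ifi44 were among the 3 of 12 with both mutants below both controls, against 21.1% of all genes. For the other 9 the groups overlapped. Gadd45a, a stress gene among the further p53 targets, is singled out here for its values, which were 802 RPM (control 1) and 187 (control 2), against 191 (mutant 1) and 136 (mutant 2), so that control 1 alone was high.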
